A study of Zea mays with 318 samples.

Results

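The genes described here are the 200 maize genes whose expression level varied least across 318 inbred lines in kernels at 5 days after pollination (5 DAP). They were chosen in 2 steps from the deposited FPKM, a read count scaled for library size and gene length. Of 39625 genes, 10624 had a mean of at least 10 FPKM over the 318 inbred lines, and the 200 of these with the lowest coefficient of variation (CV, the SD divided by the mean) were kept, which is 1.88% of the 10624. The study collected kernels of maize inbred lines grown in 3 field blocks, mixed the seeds of each line before RNA extraction, and sequenced 1 library per line to map genetic effects on expression. There was no treatment and no replicate library of any line, so an SD below is the spread among inbred lines together with the error of a single library. The titles put 98 lines in a CIMBL series, 40 in a CML series and 46 in a GEMS series, and the rest carry none of these prefixes and are called unprefixed. All lines were inbred, untreated and sampled at the same age. Because the mean and the CV chose the genes, both are given as descriptions without a test.

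A gene that is expressed at a nearly constant level is useful as a reference against which other transcripts are measured. Such genes have traditionally been taken from the cytoskeleton, glycolysis and translation, for example actin, tubulin, glyceraldehyde-3-phosphate dehydrogenase (GAPDH) and the elongation factor EF1-alpha. Genes with a steady transcript level in plants often act in processes that every cell needs, such as chromatin maintenance, protein turnover, vesicle traffic and RNA processing. At 5 DAP the maize kernel is still mostly maternal tissue around a young endosperm and embryo, so the level of a gene depends both on its activity per cell and on the make-up of the kernel.

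The tissue label was checked on a few markers. The floral regulator ZAG2 (GRMZM2G160687), listed for maternal kernel tissue, lay between 81.4 and 498 FPKM with a median of 196 FPKM. Mn1 (GRMZM2G119689), an endosperm cell wall invertase, lay between 1.97 and 239 FPKM with a median of 39.2 FPKM. The endosperm storage regulator O2 (GRMZM2G015534) was listed at 0 in 297 lines. GRMZM2G111306, taken here as an endosperm marker but without an entry in the RefSeq table to check this by, was at 0 in 274 lines. The median of 2 Rubisco small subunit genes, listed for leaf, was 1.81 FPKM (GRMZM2G098520) and 9.41 FPKM (GRMZM2G113033). Total counts per line ranged from 6100624 to 29629212 with a median of 13625467.5. In 12 lines the library correlated below 0.6 with the average line over the 1000 most abundant genes, and 91% of the 200 genes were chosen again without these 12 lines. The libraries of 177 and ZHENG58 were closer to each other than any other pair (r = 0.991 over 1000 variable genes), yet their counts differed by more than counting error, with a mean squared standardized difference of 2.99 where counting error alone gives 1. Both were kept, and 99% of the 200 genes were chosen again without ZHENG58.

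The 200 genes had CVs from 10.5 to 15.9% with a median of 14.8%, against a median of 34.4% over the 10624 genes. Their mean levels ran from 10.4 to 206 FPKM with a median of 24.2 FPKM, close to the median of 23.3 FPKM over all 10624. Most were thus moderately expressed. Of the 3781 genes with a mean of 20 to 50 FPKM, 2.72% were among the 200, whereas 4 of 653 genes (0.613%) at 100 to 200 FPKM and 1 of 383 genes (0.261%) at 200 FPKM and above were. None of the 200 most abundant genes was among them. In bulk kernels a lower level from fewer cells of a type cannot be told apart from less RNA per cell, and this holds for every level given here.

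**Figure D1:**
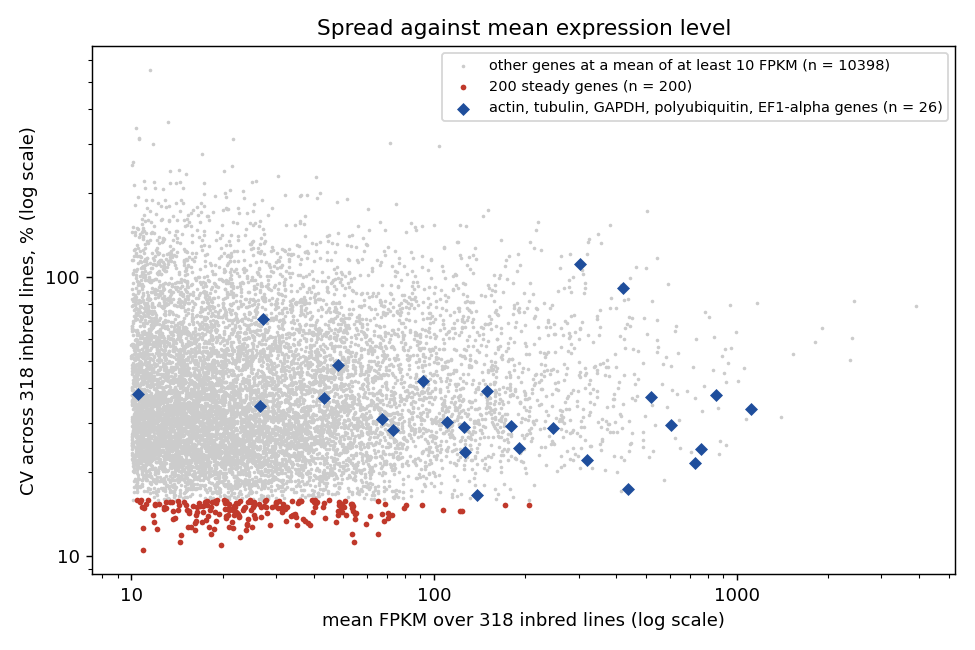
CV across 318 inbred lines against mean FPKM over the same lines, both on log scales, with 1 point for each of the 10624 genes at a mean of at least 10 FPKM. The 200 steady genes (red) fill the lower edge up to a CV of 15.9% and lie mostly below 100 FPKM, and the 26 genes of the usual normalizer families (blue diamonds) all lie above them.

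The edge of the group was not marked by any gap. The last genes inside were GRMZM2G026962, GRMZM2G048851 and GRMZM2G121223 with CVs of 15.930, 15.940 and 15.941%, and the next outside were GRMZM2G171622, GRMZM2G088487 and GRMZM2G027995 with 15.944, 15.948 and 15.949%. GRMZM2G027995 is named tif-4A3 in RefSeq and GRMZM2G116034, which is inside the group at rank 85, is named eIF-4A and tif4A2. Both names belong to the RNA helicases that unwind messenger RNA at the start of translation. Membership at the edge therefore rests on very small differences in CV.

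The 200 genes tended to be longer than the 10624, a feature that the rule did not name. The gene length implied by the FPKM had a median of 2201.5 bases, against 1840 bases over the 10624 genes. The lengths overlapped widely, with lower and upper quartiles of 1834 and 2577 bases, against 1315 and 2399 bases. Only 1 of 1400 genes shorter than 1000 bases was among the 200 (0.0714%), while 67 of 2113 genes of 2000 up to 2500 bases were (3.17%). Length was not independent of the rule, since at a given FPKM a longer gene has more counts and less counting error. The mean normalized count had a median of 747 for the 200 genes. Counting error made up a median of 6.25% of their variance, against 1.23% over the 10624 genes, and their CV with that part removed still ran from 9.83 to 15.6% with a median of 14.3%. When genes were ranked by the CV with the counting part removed, 94.5% of the 200 were chosen again.

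Across lines, the individual values were as narrow as the CV implies. Of the 63600 values of the 200 genes, 58245 (91.6%) lay within 25% of the median of their gene, against 53.7% for the 10624 genes. The ratio of the highest to the lowest line had a median of 2.46, and it was below 3 for 175 genes and below 2 for 11. No other gene at a mean of 10 FPKM had a ratio below 2. Over the 200 most variable genes with a count in every line, the median ratio was 1026.

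The narrowest gene was GRMZM2G023667, at 10.9 ± 1.14 FPKM (SD, n = 318; CV 10.5%). It is paired in the RefSeq table with 2 genes, one of which is smh3, a single myb histone gene of a family that binds telomeric DNA. Its lowest line was HUA83-2 at 6.63 FPKM, the median was 10.8 FPKM and the highest was CIMBL52 at 14.8 FPKM, and 310 of the 318 lines lay within 25% of the median. It ranked at the top again in the unprefixed lines alone and in the GEMS lines alone, where its CV was 8.005%. In the other 2 series it did not. Its CV was 11.2% in the CIMBL lines, where GRMZM2G100707 was lowest at 9.63%. In the CML lines its CV was 10.9%, and GRMZM2G116908 was lowest at 8.82%.

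The next 11 genes have no name in the RefSeq table. GRMZM2G100707 ran from 14.5 FPKM in DONG46 through a median of 19.5 to 26.8 FPKM in JI63, a ratio of 1.84 that was the smallest of all 10624 genes. GRMZM2G012628 ran from 40.8 FPKM in GEMS28 through 54.1 to 78.1 FPKM in Q319-BC6, and GRMZM2G103430 ran from 47.1 FPKM in GEMS6 through 64.6 to 90.2 FPKM in YE515. These 2 and GRMZM2G090904 (median 53.1 FPKM) were the most abundant of the 12. GRMZM2G102745, GRMZM2G010315, GRMZM2G032423, GRMZM2G074323 and GRMZM2G032071 had medians between 14.4 and 18.5 FPKM, and GRMZM2G111238 and GRMZM2G549512 had medians of 22.7 and 23.7 FPKM. Of the 12, the CVs lay between 10.5 and 12.5%, and in each of them at least 300 of the 318 lines were within 25% of the median.

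**Figure D2:**
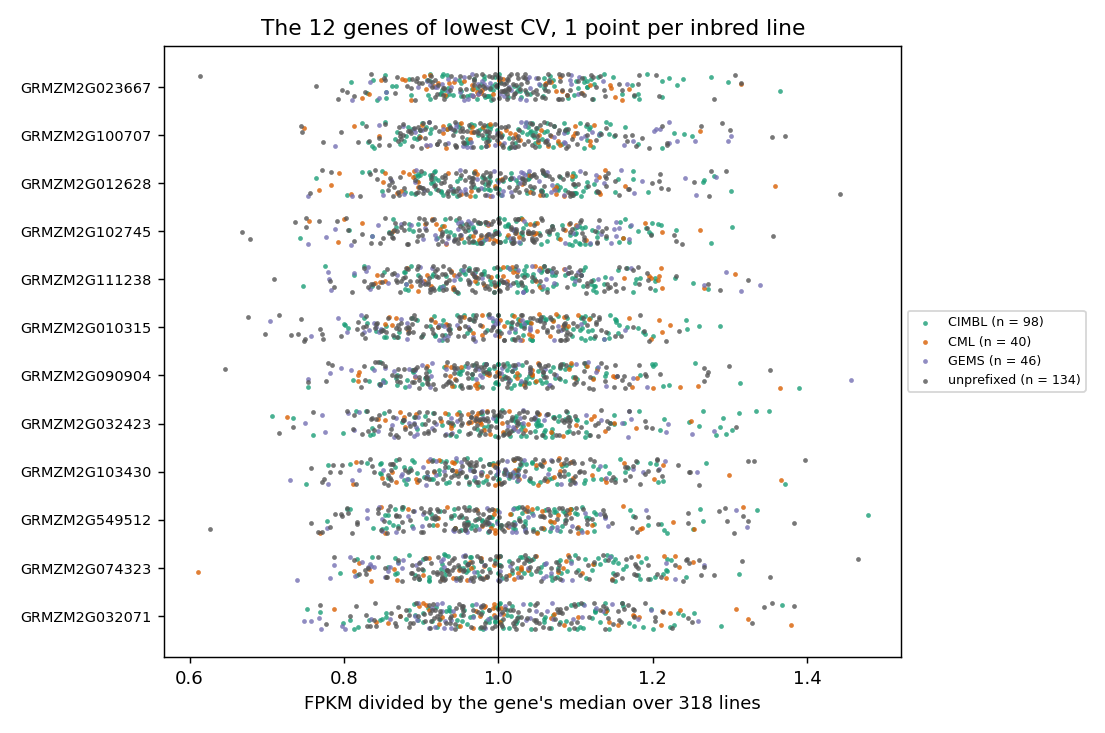
FPKM divided by the median of the gene over 318 inbred lines, for the 12 genes of lowest CV, with 1 point per line coloured by name series (98 CIMBL, 40 CML, 46 GEMS, the rest unprefixed). Points are shifted at random along the vertical axis within a row, the 4 series overlap in every row, and at least 300 of 318 lines fall within 25% of the median in each.

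Only part of the group could be named. The RefSeq table matched 174 of the 200 identifiers and gave a gene name to 24 of them, and 6 identifiers were paired with 2 RefSeq genes. The lists below were made from these names after the names of the 200 genes had been seen, so they are a description and not evidence about the group.

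Of the named lists, that of chromatin genes held the largest number of members. Of 51 named chromatin genes at a mean of at least 10 FPKM, 5 (9.80%) were among the 200, against 1.88% of all 10624 genes, and the 51 had a median CV of 22.7%. Beside GRMZM2G023667 they were HDA108 (GRMZM2G136067, a histone deacetylase), SET102 (GRMZM2G147619, of the SET domain family of histone methyltransferases), mbd115 (GRMZM2G157470, of the methyl-CpG-binding domain family) and nfc103 (GRMZM2G023372, of the chromatin assembly factor group). HDA108 ran from 16.2 FPKM in GEMS28 through 29.8 to 45.6 FPKM in CIMBL48. SET102 ran from 7.80 through 11.7 to 18.7 FPKM, mbd115 from 33.1 through 50.4 to 80.3 FPKM, and nfc103 from 25.2 through 45.3 to 64.6 FPKM. Histone genes themselves varied more, with a median CV of 50.9% over 9 genes, against 34.4% over all 10624. None of the 9 was among the 200, which for so few genes is near the share of 1.88%.

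Genes of protein turnover were also present. Of 6 named ubiquitin pathway genes, 3 (50%) were among the 200, against 1.88% of all 10624 genes. fus6 (GRMZM2G062210) had the lowest CV of them at 12.6% and rank 14. In Arabidopsis FUS6 is a subunit of the COP9 signalosome, which regulates cullin ubiquitin ligases. It ran from 15.8 FPKM in CML423 through 21.5 to 29.9 FPKM in QI205, a ratio of 1.89. Cullin-1 (GRMZM2G166089), the scaffold of SCF ubiquitin ligases, ran from 28.3 FPKM in GEMS54 through 49.1 to 73.6 FPKM in CIMBL156. The ubiquitin-conjugating enzyme gene uce2 (GRMZM2G177276) ran from 23.6 through 35.7 to 58.7 FPKM. Of 8 autophagy genes, 2 (25%) were among the 200. atg6 (GRMZM2G092112), part of the lipid kinase complex that starts autophagosome formation, had a median of 27.9 FPKM and a CV of 14.2%, and Atg4a (GRMZM2G064212), a protease that processes ATG8, had a median of 18.1 FPKM and a CV of 15.7%.

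Signalling and regulatory genes were present in small numbers. Of 26 genes named for protein kinases or their subunits, 3 (11.5%) were among the 200, with CVs of 15.6 to 15.7%. The share over all 10624 genes was 1.88%. They were CPK21 (GRMZM2G463464, a calcium-dependent kinase), akin1 (GRMZM2G047774, listed as Snf-4 like, after a regulatory subunit of the yeast Snf1 kinase) and cka2 (GRMZM2G047855, a subunit of the kinase CK2). Their medians were 24.2, 30.9 and 63.8 FPKM. Genes listed as transcription factors had a median CV of 42.3% over 172 named genes, and 3 of them (1.74%) were among the 200, near the background of 1.88%. These were TIFY21 (GRMZM2G058479) at a median of 47.6 FPKM, MYBR43 (GRMZM5G813892) at 21.03 FPKM and bZIP96 (GRMZM2G161009) at 10.9 FPKM.

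In translation and RNA processing, 1 of 12 named translation factors (8.33%) was among the 200, against 1.88% of all 10624 genes. None of 35 ribosomal protein genes was, which for so few genes is near that share. The translation factor was eIF-4A (GRMZM2G116034), which ran from 81.4 FPKM in BZN through 121.9 to 197.6 FPKM in GEMS55. The lowest CV among the ribosomal protein genes was 21.2% and their median was 31.4%, against 34.4% over all 10624 genes. RS2Z37A (GRMZM2G175419), of the serine/arginine-rich splicing factors, had a median of 53.2 FPKM and a CV of 14.6%. Heat shock protein genes lay at the other end, with a median CV of 87.1% over 16 genes. None of the 16 was among the 200, which for so few genes is near the share of 1.88%.

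The 3 highest means in the group were those of a malic enzyme gene, an unnamed gene and eIF-4A (GRMZM2G116034, 123.4 ± 17.9 FPKM; SD, n = 318). The malic enzyme gene me2 (GRMZM2G122479), which converts malate to pyruvate, had the highest mean at 206 ± 31.5 FPKM (SD, n = 318) and ran from 119.1 FPKM in DAN599 through 205 to 368 FPKM in Q319-BC6. GRMZM2G134806, without a name, followed at a mean of 171 FPKM. ATPB (GRMZM2G113408), the beta subunit of mitochondrial ATP synthase, ran from 78.6 FPKM in CIMBL2 through 120.1 to 180.9 FPKM in Q319-BC6. At a moderate level, the acetohydroxyacid synthase gene als1 (GRMZM2G143008), of branched-chain amino acid synthesis, ran from 29.1 FPKM in EN25 through 53.3 to 84.3 FPKM in CIMBL10. The lowest means in the group were 10.4 FPKM for GRMZM2G117612, 10.7 FPKM for GRMZM2G180654 and 10.8 FPKM for GRMZM2G026962.

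None of the named genes of 5 families usually taken as references was among the 200. The 200 are 1.88% of the 10624 genes, so an absence among so few named genes is near that share. The RefSeq names gave 26 genes of the actin, tubulin, GAPDH, polyubiquitin and EF1-alpha families at a mean of at least 10 FPKM. Their CVs ran from 16.6 to 111.3% with a median of 30.6%, below the median of 34.4% over all 10624 genes. Of the 26, 11 were above that median of all 10624 genes. The lowest was the actin gene GRMZM2G067985 (Actin-7) at rank 284, which ran from 76.9 FPKM in CIMBL106 through 136 to 248 FPKM in Q319-BC6. The EF1-alpha gene GRMZM2G153541 followed at rank 394 with a CV of 17.3%, from 234 through 432 to 751 FPKM. The actin gene had a higher mean than all but 2 of the 200 steady genes, and the EF1-alpha gene a higher mean than any of them.

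In the other families even the gene of lowest CV varied more than these 2 genes. The families as wholes were ordered otherwise. The median CV was 32.8% over 6 actin genes, 29.8% over 10 tubulin genes and 22.8% over 4 EF1-alpha genes. It was 64.3% over 4 GAPDH genes and 35.8% over 2 polyubiquitin genes, and the actin genes ran up to 42.6%. The tubulin gene of lowest CV was GRMZM2G153292 (TUA1 and TUA2) at 21.6%, from 356 through 712 to 1256 FPKM, and the tubulin gene of highest mean, GRMZM2G152466 (tua4), had a CV of 24.2%. The GAPDH gene gpc2 (GRMZM2G180625) had a CV of 29.6% and ran from 179 FPKM in CIMBL15 through 601 to 1239 FPKM in SI273. The GAPDH genes gpc3 (GRMZM2G071630) and gpc4 (GRMZM2G176307) had CVs of 91.3 and 111.3%, and gpc4 differed 136-fold between its lowest and highest line. The polyubiquitin gene GRMZM2G419891, the most abundant of the 26, had a CV of 33.7% around a mean of 1109 FPKM. Members of actin, tubulin and ubiquitin families share sequence, and because only uniquely aligned reads were counted, their levels are uncertain where copies are near-identical.

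**Figure D3:**
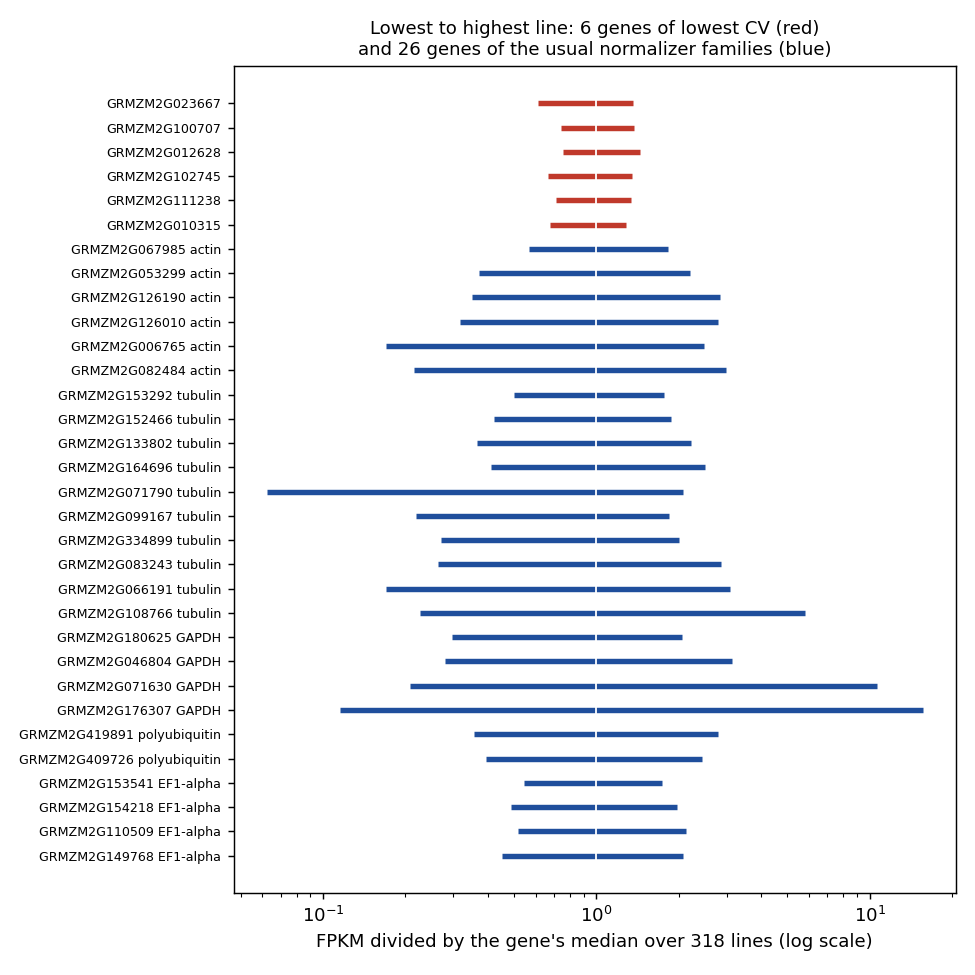
Span from the lowest to the highest of 318 inbred lines, as FPKM divided by the median of the gene on a log scale, for the 6 genes of lowest CV (red) and the 26 genes of the actin, tubulin, GAPDH, polyubiquitin and EF1-alpha families (blue). White ticks mark the median, and the widest blue span is that of the GAPDH gene GRMZM2G176307, 136-fold from lowest to highest line.

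The values far from the steady level were almost all falls. Of the 63600 values, 32 lay below 0.5 times the median of their gene (0.0503%) and 1 lay above 2 times the median (0.00157%). Over the 10624 genes the shares were 7.33 and 5.49%. The excess of falls follows in part from the rule, since a CV on the linear scale is raised more by a rise of a given fold than by a fall of that fold. The 32 low values fell in 21 genes and 30 lines, and 14 of the 21 genes were low in 1 line only, 4 in 2 lines, 2 in 3 lines and 1 in 4 lines. Of the low values, 20 were in unprefixed lines, 6 in CIMBL, 4 in CML and 2 in GEMS lines, or 0.0746, 0.0306, 0.05 and 0.0217% of the values of each series.

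The deepest fall was in GRMZM2G134770. It was at 0.029 FPKM in CML325, from 1 count in a library of 11589448 counts, against a median of 19.2 FPKM over all lines. The next lowest line was at 12.9 FPKM, and without CML325 the ratio of highest to lowest was 2.06 and the CV fell from 15.9 to 14.8%. A gene that is nearly uniform in 317 lines was thus close to absent in the other one. GRMZM2G081144 was at 1.44 FPKM (30 counts) in CML323 and at 2.64 FPKM (60 counts) in CIMBL139, against a median of 13.6 FPKM.

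Some genes fell to a similar level in several lines. GRMZM2G142806 was at 3.67 FPKM in B151, 3.74 FPKM in TIAN77 and 5.84 FPKM in JH96C, against a median of 21.9 FPKM, and 302 of the 318 lines lay within 25% of that median. GRMZM2G329033 was at 6.69 FPKM in CHENG698, 7.81 FPKM in 150, 7.85 FPKM in Z2018F and 9.48 FPKM in SI273, against a median of 25.2 FPKM. GRMZM2G180909 was at 5.97 FPKM in Y1382 and 8.04 FPKM in SY1032, against a median of 30.03 FPKM. The lines low for these 3 genes are unprefixed, which did not hold for every gene low in several lines. GRMZM2G132519 was at 8.83 FPKM in CML411, 13.9 FPKM in CIMBL62 and 13.9 FPKM in K10, against a median of 28.9 FPKM. Apart from the 3 genes with the widest range (GRMZM2G134770, GRMZM2G081144 and GRMZM2G142806), the genes named for a low or high line were chosen after their values were seen.

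Further falls were in 1 or 2 lines. GRMZM2G121223, the last gene inside the group, was at 5.19 FPKM in YE478, against a median of 24.1 FPKM, and its next lowest line was at 15.8 FPKM. CA47 was low for 2 genes, GRMZM2G134806 at 43.8 FPKM against a median of 171 FPKM and GRMZM2G089676 at 7.76 FPKM against 24.3 FPKM. In 7884-4HT, CPK21 (GRMZM2G463464) was at 10.1 FPKM and GRMZM2G090217 at 9.30 FPKM, against medians of 24.2 and 22.2 FPKM, and this line is also one of the 12 of low correlation with the average line. CPK21 was also low in CIMBL40 at 11.04 FPKM, and GRMZM2G090217 was lower still in 5213, at 8.05 FPKM. The single high value was GRMZM2G104375 in CIMBL133, at 41.3 FPKM against a median of 20.2 FPKM. Apart from the 1 count of GRMZM2G134770, each low value rested on at least 30 counts. The cause of the low values was not tested.

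**Figure D4:**
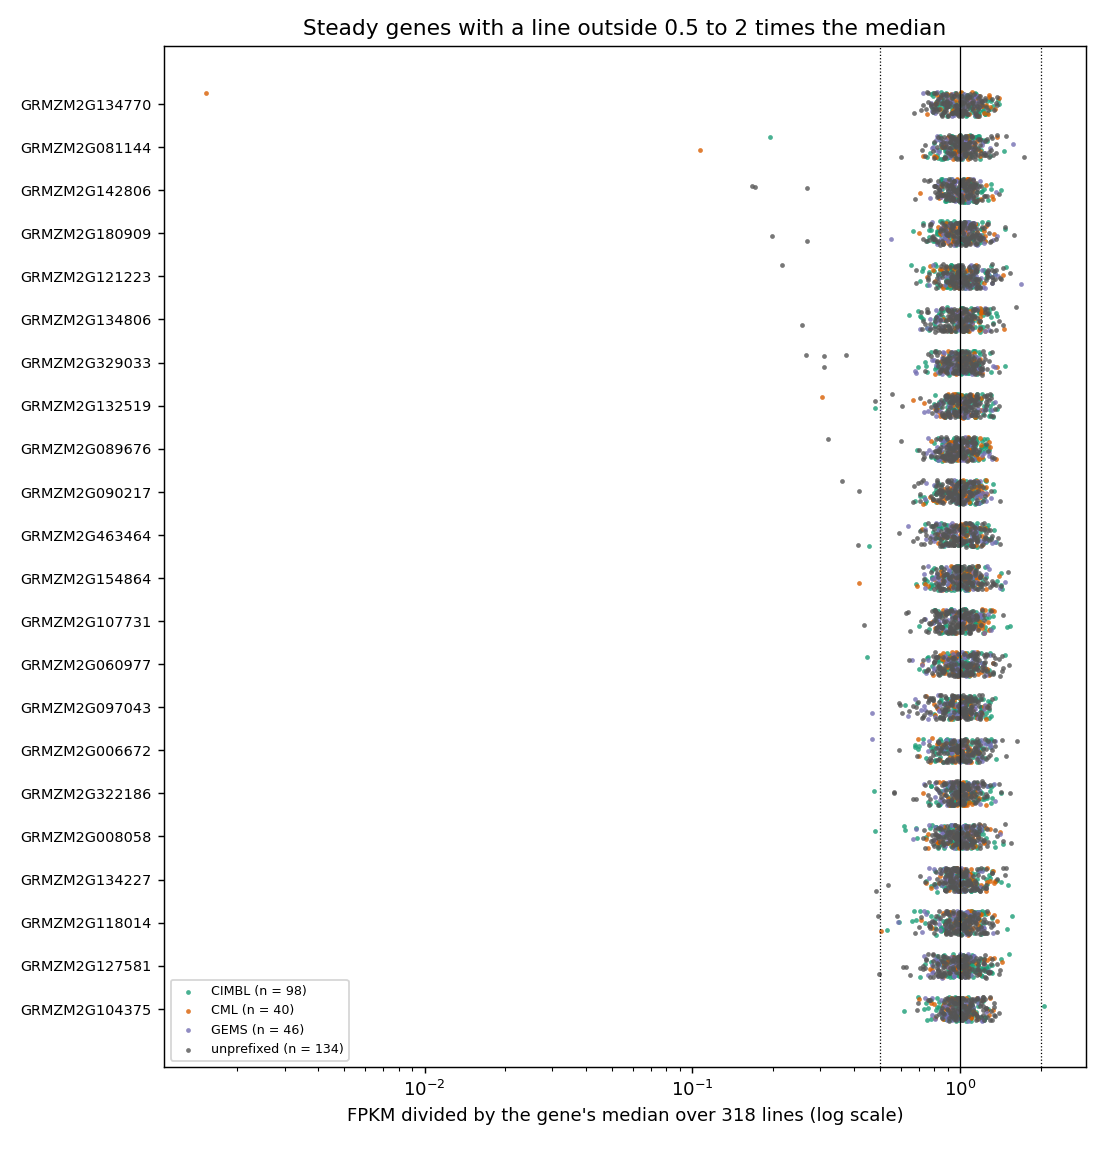
FPKM divided by the median of the gene on a log scale, for the 22 steady genes with at least 1 of 318 inbred lines below 0.5 or above 2 times the median (dotted lines), with 1 point per line coloured by name series. The lowest point is GRMZM2G134770 in CML325 at 0.00153 times the median, and GRMZM2G142806, GRMZM2G329033 and GRMZM2G180909 each have several unprefixed lines apart from the rest.

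Lines differed in how far the 200 genes strayed together. The median deviation of the 200 genes from their own medians, taken without sign on a log2(FPKM + 0.1) scale, was 9.66% in the median line and ran from 6.39 to 19.1%. In 34.9% of lines no gene was off by 1.5-fold. The line farthest from the rest was Q319-BC6, with a deviation of 19.1% and 19 genes off by 1.5-fold, followed by CIMBL133 with 18.95% and 16 genes. Part of this was a rise shared by the genes, since the mean log2 deviation with sign was 0.216 in Q319-BC6 and 0.159 in CIMBL133. Not every such line was shifted as a whole: in TY-HZ4, with a deviation of 15.3%, that mean was -0.006. CIMBL133 held the highest value of 19 of the 200 genes and Q319-BC6 of 17, while GEMS54 held the lowest value of 10. The FPKM of the 200 genes summed to 8069 in Q319-BC6 and 5636 in GEMS54, the highest and the lowest of all lines, around a median of 6420.

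These deviations were larger where the rest of the transcriptome stood apart. Across the 318 lines the deviation had a Pearson's r of -0.520 and a Spearman's rho of -0.410 with the correlation of a line to the average line, computed without the 200 genes. Within the series r was -0.555 (CIMBL), -0.490 (CML), -0.382 (GEMS) and -0.558 (unprefixed), and leaving out the 2 lines at the extremes of that correlation gave -0.497. With the logarithm of the total count r was 0.0519 and rho 0.0633. Another relation, with the ratio of the total count to the size factor, had r = 0.152 and rho = 0.177, and its r was 0.000972 within the CIMBL, -0.0743 within the CML, 0.365 within the GEMS and 0.213 within the unprefixed lines. The 3 relations are descriptions, since the spread of these genes was the measure that chose them, and the lines share a field season and a common scaling.

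The 200 genes made up between 0.996 and 2.01% of the counts of a line, with a median of 1.48%. Scaling the libraries by these genes alone gave factors within 5% of those from all genes in 248 lines and within 10% in 306. The ratio of the 2 factors ran from 0.872 to 1.17.

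The members depended on both the scaling and the choice of lines. With libraries scaled by the total count alone, 48.5% of the 200 genes were chosen again, and the CV of the 200 rose to between 11.3 and 21.6% with a median of 17.99%, while the median over genes at a mean of at least 10 FPKM was 34.8%. With edgeR's TMM library sizes, 88% were chosen again. GRMZM2G023667 had the lowest CV under both. With the rule applied to each series on its own, 74% of the group were chosen again in the CIMBL lines, 59.5% in the CML, 55% in the GEMS and 81% in the unprefixed lines. A set of 56 genes was chosen in all 4 series, and these were all members, among them the 12 of lowest CV, fus6 and als1. These counts are not independent of the rule, which used the same lines, and a series with fewer lines gives a less exact CV.

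The name series were compared to see whether the steady level itself was shifted between groups of lines. In edgeR's quasi-likelihood test on counts over 26440 genes, with Benjamini-Hochberg adjustment and a threshold of 0.05, 49 of the 200 genes (24.5%) differed between CIMBL and unprefixed lines, against 24.3% of all genes tested. Of these 49, 44 were higher and 5 lower, against 10.8 and 13.5% of all genes tested. For CML, 26 of the 200 (13%) differed, against 12.9% of all genes, 25 of them higher and 1 lower, against 5.62 and 7.30%. For GEMS, 5 (2.50%) differed, all lower, against 4.24%, 2.18% of all genes being lower. With the further demand of a fold of at least 1.2, none of the 200 genes was called in any series, against 15.9% of all genes in CIMBL, 10.2% in CML and 3.80% in GEMS. The rule bounds the spread of these genes over the same lines. This absence therefore follows largely from how they were chosen. Among the 10624 genes at a mean of at least 10 FPKM, 23.3% were called in CIMBL, 11.9% in CML and 3.39% in GEMS. At an unadjusted p below 0.05 in the same test the 200 genes gave 71, 65 and 32 calls. The share over all genes was not computed at that threshold, so these counts say nothing particular about the group. The 3 comparisons share the unprefixed lines, and relatedness among lines was not modelled.

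The share of the group that was called was thus near the background in CIMBL and CML, and the differences were small. The rule bounds the total spread of these genes and so the difference between series that they can show, while the same narrow spread gives a small standard error, with a median of 0.03 on the log2 scale for CIMBL against 0.10 over all genes. The log2 differences of the 200 genes ran from -0.10 to 0.15 in CIMBL, from -0.14 to 0.18 in CML and from -0.15 to 0.11 in GEMS. Their medians were 0.03, 0.04 and -0.03, against -0.01, -0.02 and -0.01 over all genes tested. The balance of higher to lower calls changed somewhat with the scaling but kept its direction in each series. With DESeq2 size factors in edgeR it was 40 to 8 in CIMBL, 18 to 4 in CML and 1 to 6 in GEMS. Over all 26440 genes of that fit it was 2700 to 3800, 1316 to 2134 and 552 to 576.

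**Figure D5:**
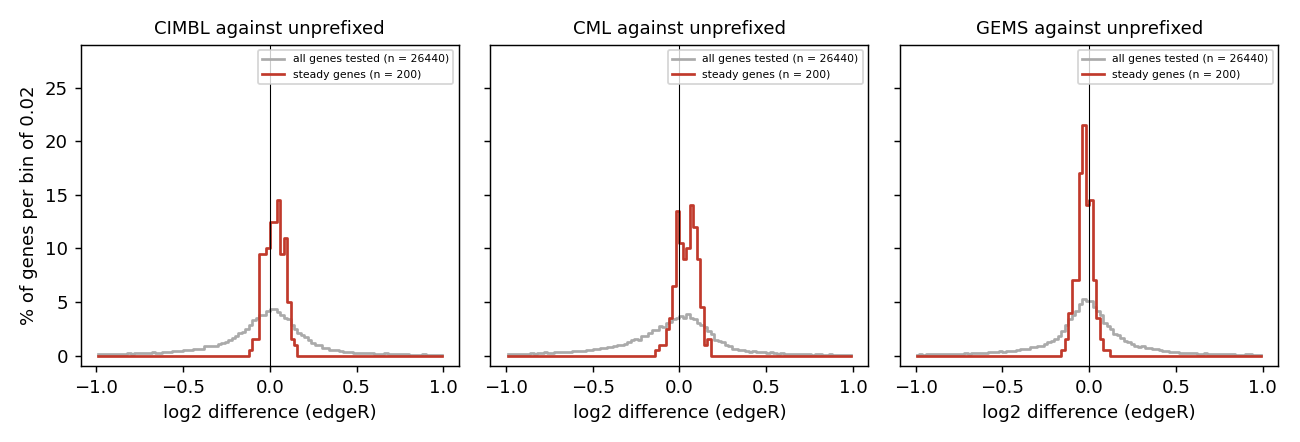
Share of genes per bin of 0.02 in the log2 difference from unprefixed lines (edgeR), for all 26440 genes tested (grey) and the 200 steady genes (red), in CIMBL, CML and GEMS lines. Differences beyond -1 or 1 are not drawn, and the steady genes lie within -0.15 and 0.18 in the 3 panels.

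The genes with the largest differences still overlapped widely between series. GRMZM2G152457 ran from 11.6 through 16 to 23.1 FPKM in CIMBL lines and from 8.52 through 14.3 to 20.2 FPKM in unprefixed lines. Its log2 difference was 0.15 (SE 0.03, adjusted p = 2.52e-05, edgeR), and 74 of 98 CIMBL lines were above the unprefixed median. The CK2 kinase gene cka2 (GRMZM2G047855) ran from 49.5 through 68.9 to 92.6 FPKM in CIMBL and from 42.7 through 62.7 to 84.7 FPKM in unprefixed lines, with a log2 difference of 0.14 (SE 0.03, adjusted p = 0.000124, edgeR) and 65 of 98 lines above that median. The largest falls in CIMBL were those of GRMZM2G133764, from a median of 23.9 to 22.3 FPKM (log2 difference -0.10, SE 0.03, adjusted p = 0.00299, edgeR, 32 of 98 lines above that median), and of the splicing factor gene RS2Z37A (GRMZM2G175419), from 54.8 to 51.9 FPKM (log2 difference -0.09, SE 0.03, adjusted p = 0.0104, edgeR, 37 of 98). SET102 (-0.09, adjusted p = 0.0313) and fus6 (-0.08, adjusted p = 0.00920) also fell in CIMBL in edgeR's test, and MYBR43 rose (0.08, adjusted p = 0.0176).

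In CML lines, GRMZM2G017835 ran from 40.6 through 54.4 to 87.1 FPKM, against 33.4, 48.5 and 69.2 FPKM in unprefixed lines. Its log2 difference of 0.18 (SE 0.04, adjusted p = 0.000749, edgeR) was the largest of the group, with 29 of 40 CML lines above the unprefixed median. GRMZM2G091151 had a median of 20.1 FPKM in CML and 17.7 FPKM in unprefixed lines (log2 difference 0.17, SE 0.04, adjusted p = 0.000604, edgeR, 33 of 40). The 1 gene that fell was GRMZM2G133764, to a median of 21.5 FPKM (log2 difference -0.14, SE 0.04, adjusted p = 0.00688, edgeR, 10 of 40). Cullin-1 rose in CML, by a log2 difference of 0.12 (SE 0.04, adjusted p = 0.0427, edgeR).

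In GEMS lines the deacetylase gene HDA108 (GRMZM2G136067) fell most. It ran from 16.2 through 27.5 to 36.9 FPKM, against 18.5, 29.7 and 39.3 FPKM in unprefixed lines, with a log2 difference of -0.15 (SE 0.04, adjusted p = 0.00767, edgeR) and 10 of 46 GEMS lines above the unprefixed median. GRMZM2G024484 had a median of 62.8 FPKM, against 67.8 FPKM (log2 difference -0.13, SE 0.04, adjusted p = 0.0172, edgeR, 11 of 46). In each of these genes the difference between series was smaller than 1 SD of the lines within a series.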

How the data were processed

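RNA-seq of 5 DAP kernels was available for 318 inbred lines, 1 library each, from seeds of 3 field blocks mixed before extraction. One deposited table holds unnormalized counts, for which the authors aligned unstranded reads to B73 AGPv3 by TopHat2, discarded reads without a unique alignment and tallied the remainder over Ensembl gene models, so that reads of overlapping or antisense genes cannot be told apart and near-identical copies or diverged alleles can be undercounted. The other deposited table holds FPKM, computed by the authors through DESeq2. These equalled the counts over a median-of-ratios size factor per library, estimated on all 318, and a length factor per gene (largest relative difference 1.27e-14). Tool versions are not given in the sources used here.

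Genes with a mean of at least 10 FPKM were ranked by CV, and the 200 lowest were kept. The members and all lists were chosen with earlier results of these data known, and the function lists were made from RefSeq symbols and synonyms (assembly Zm-B73-REFERENCE-NAM-5.0, not AGPv3, so that no coordinates are printed) after the members' names had been seen. Named genes are the 12 of lowest CV, ranks 198 to 203, the 3 highest and 3 lowest means, the 3 narrowest and 3 widest ranges, the 2 largest called rises and falls per series, up to 3 members of lowest CV per list, the normalizer of lowest CV and of highest mean per family, and 5 identifiers taken as candidate references, of which 4 have no name in the RefSeq table. Others were chosen after their values were seen. The name series were compared with edgeR 4.0.16 (quasi-likelihood test, TMM, filterByExpr) in 1 fit over all lines, adjusted over 26440 genes. Standard errors were taken from the log2 difference and its F statistic. Alternatives were other sets of lines, scalings, measures of spread and minima, limma on log2(FPKM + 1) and DESeq2. On counts simulated for the 10624 genes and 318 lines, the ranking recovered 174 of the 200 genes with the lowest CV set as input. The input CVs came from these data and genes were drawn independently, without shifts shared within a line. The simulation therefore does not measure how stable the real list is. Total counts were 6100624 to 29629212 per line, and 36 of the lines are not in the study's mapping table. Each line is a separate library, and no p-value covers error within a line. Promoter and protein features were planned and not analysed here. Python 3.11.15, pandas 2.3.3 and R 4.3.3 were used.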

Additional observations from a re-analysis of the deposited data

How the results depend on the processing

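Of the 200 genes, 48.5% were chosen again with the library total alone, 59.5% with the CML lines alone and 55% with the GEMS lines alone. Under the other alternatives between 67 and 99% were chosen again, the lowest with a minimum of 20 FPKM, which 66 of the 200 do not reach. Without a minimum of mean FPKM the share was 95.5%, with only the lines in the study's mapping table it was 94.5%, with the SD of log2(FPKM + 1) 87.5% and with the median absolute deviation over the median 79%. Leaving out the 12 lines of low correlation (91%) or 1 line of the nearly identical pair (99%) was chosen after seeing the data. With a fold of at least 1.2 the count of the 200 genes called was 0 in CIMBL, 0 in CML and 0 in GEMS. This follows largely from the rule, which bounds the spread of these genes. The other alternatives gave 44 to 51 calls in CIMBL, 20 to 32 in CML and 5 to 7 in GEMS, where edgeR gave 49, 26 and 5. Over all genes tested, 26113 to 37288 by fit, they called 6207 to 9405 in CIMBL, 3109 to 5711 in CML and 978 to 2888 in GEMS. The main fit called 6422, 3417 and 1121 of 26440 genes. Among the log2 differences of named genes, none changed sign while called, and 14 values lost and 11 gained a call under an alternative. The means of all 56 named genes stayed within 1 SD with the lines of the mapping table and with the library total alone. No paired analysis was possible because each replicate number only counts different inbred lines within a series. With 1 library per line the error of a single library cannot be told apart from the difference between lines.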

Other observations

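The correlations among the steady genes were mostly weak. Over the 19900 pairs of the 200 genes, the correlation of log2(FPKM + 0.1) across the 318 lines had a median of 0.0719, against 0.00669 over all pairs among the 10624 genes. The median correlation without sign was 0.129, against 0.134, and 0.754% of pairs were beyond 0.5 in either direction, against 2.63%. Of the pairs beyond 0.5, 145 were positive and 5 negative. The highest was that of Cullin-1 (GRMZM2G166089) with GRMZM2G166694, r = 0.727, and the lowest that of GRMZM2G171745 with GRMZM2G026962, r = -0.559. These correlations are across lines that share their size factors and are descriptions. The first 2 principal components of the 200 genes held 12.8 and 9.30% of their variance.

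Of 5 further identifiers taken here as candidate references, 1 was among the 200. The RefSeq table gives a name to 1 of the 5 (fgp1), so the identity of the other 4 as reference genes was not verified. GRMZM2G166694 ran from 29.6 through 47.8 to 71.8 FPKM and had rank 135 with a CV of 15.2%. GRMZM2G425377 had rank 414 (CV 17.4%), GRMZM2G102471 rank 692 (18.8%), GRMZM2G018103 rank 2227 (24.2%) and GRMZM2G393334, named fgp1, rank 4424 (30.98%). GRMZM2G102471 was the most abundant of the 5, with a median of 562 FPKM.

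The pair of nearly identical libraries gives the smallest difference seen between 2 libraries. Between 177 and ZHENG58 the 200 genes differed by a median of 4.70%, the lowest of 50403 pairs of lines, against a median of 14.3% over all pairs and a highest value of 39.01%. The next closest pair by correlation over 1000 variable genes, 478-BC6 and GL178, differed by 8.97%. Whether 177 and ZHENG58 share seed, RNA or pedigree was not tested.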
